A study of Mus musculus with 6 samples.

Results

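The insulin-like growth factor (IGF) system was examined in mouse embryonic back skin through 10 genes, of 2 ligands (Igf1 and Igf2), 2 receptors (Igf1r and Igf2r) and 6 binding proteins (Igfbp2 to Igfbp7). The genes were chosen by name, as all probe sets of the Affymetrix MOE430 2.0 array annotated to 1 of them alone, which gave 28 of the 45037 probe sets tested. An additional probe set shared by Igf2r and its antisense transcript Airn carries more than 1 symbol and was left out. The skins were collected at embryonic stage E15.5 from mice of mixed C57BL6/129 background. The control group held 3 samples of genotype Fzd6 +/-, and the knockout group held 3 samples of genotype Fzd6 -/-, so every sample carried at least 1 mutant copy of Fzd6 and none was wild type. Fzd6 encodes a Frizzled receptor of planar cell polarity, the system that orients hair follicles. The samples are labelled as biological replicates, without saying if each was 1 embryo, so the p-values measure the spread between these samples.

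IGF1 and IGF2 are secreted growth factors related to insulin. Both signal through the receptor tyrosine kinase encoded by Igf1r, while the receptor encoded by Igf2r carries IGF2 to the lysosome for breakdown and sends no growth signal of that kind. Binding proteins hold the ligands outside the cell, extend their life and either restrain or deliver them, and in skin the ligands are made mainly by dermal cells, while the IGF1 receptor is also present on keratinocytes.

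Values are RMA expression values on the log2 scale, so a difference of 1 is a doubling of signal. Array medians lay between 5.99 and 6.03. Main markers of skin were high on the 6 arrays. The epidermal keratins Krt5 and Krt1 lay at 12.2 to 13.1 and 13.1 to 13.6 and the dermal collagen Col3a1 at 13.6 to 14.4. Other epidermal markers were dimmer, with lowest mean levels of 7.84 in the basal and 6.97 in the suprabasal list. Skeletal muscle genes were also high, at mean levels of 9.07 to 13.29 over 8 genes, while 5 measured hepatocyte genes had mean levels of 4.62 to 6.37. Fzd6 itself measured 9.38 ± 0.23 in control and 8.93 ± 0.19 in knockout skin in its brightest probe set (log2, SD, n = 3). Dimmer Fzd6 probe sets gave −0.67, also without overlap (unadjusted p = 7.6e-05 in limma), and −0.0097, with overlap. No Fzd6 probe set passed the adjusted threshold (smallest adjusted p = 0.864 in limma). The labels do not say where these probe sets lie relative to the deletion. The first replicates of the groups, called control 1 and knockout 1, stood apart from the other 4 arrays, with the lowest means of the fibroblast, endothelial and pericyte marker lists, though not the lowest value of each gene in them. Differences that moved most when they were left out are also given without them.

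The question of the comparison was whether IGF genes differ in skin without Fzd6. No difference between the genotypes passed the test for any of the 28 probe sets (limma adjusted p under 0.05 over all 45037 probe sets, smallest 0.909 among the members), and 0% of all probe sets passed it. At an unadjusted limma p under 0.05 there were also 0 of 28, against 5.21% of all probe sets. The groups overlapped in all 28, whereas they did not overlap in 11.6% of all probe sets (5.00% with the knockout below and 6.55% above). Knockout means were lower in 19 of 28 member probe sets, against 49.4% of all, with a median difference of −0.12 against 0.0018. That count changed most when knockout 1 was left out. Knockout 1 was the lowest array in 20 of 28 member probe sets, so its removal raises their knockout means by construction. Without knockout 1 the count was 6 of 28, against 46.6% of all probe sets. Without replicate 1 of both groups it was 15 of 28, against 46.7%. The values of the members varied widely between arrays. The SD over the 6 arrays had a median of 0.32 in the 26 member probe sets above the median level, against 0.16 in all 22518 probe sets above it.

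**Figure D1:**
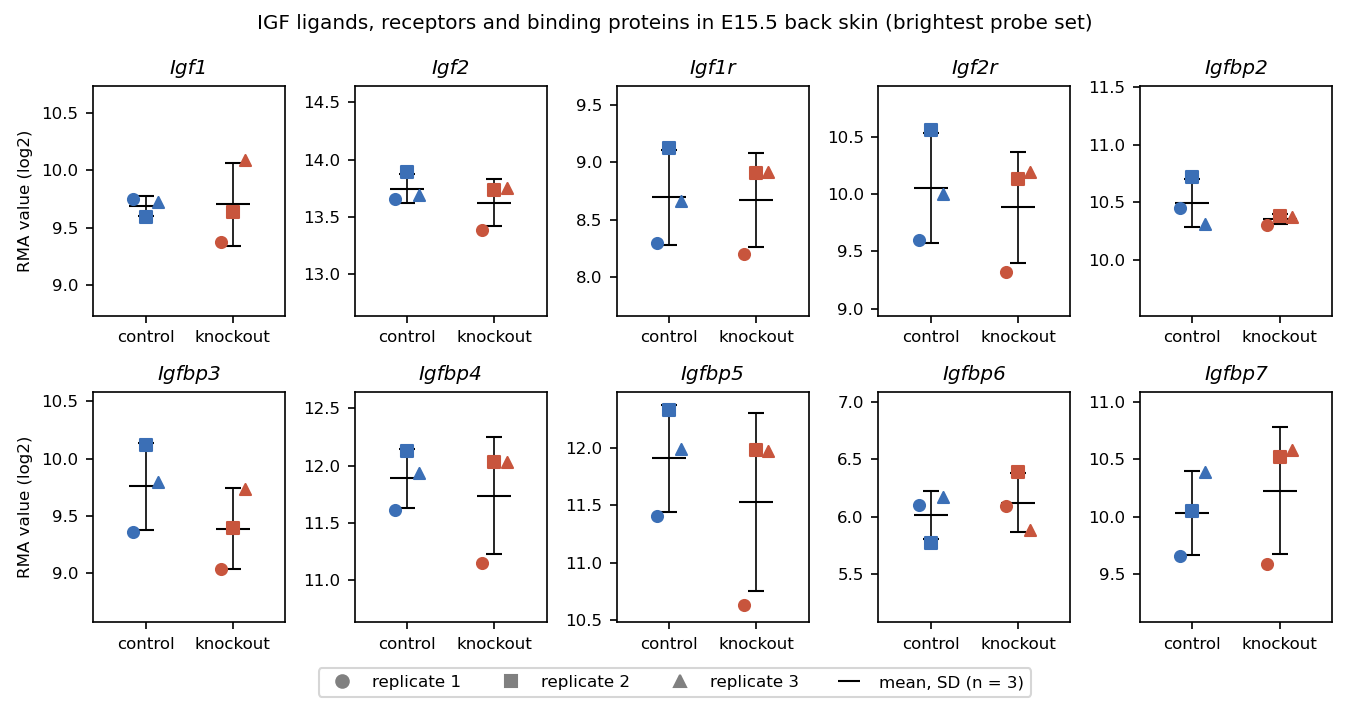
RMA value (log2) of the brightest probe set of each of the 10 genes, by genotype; blue and red symbols are the 3 control and 3 knockout arrays, with shape marking the replicate number, and bars give mean and SD. Every panel spans 2 log2 units. Knockout 1 (red circle) is the lowest array in 9 of 10 genes and control 2 (blue square) the highest in 7 of 10, while the genotypes overlap in each.

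Of the ligands, Igf2, the main growth factor of the fetus, was read by its brightest probe set at 13.66, 13.89 and 13.69 in controls 1 to 3 and at 13.39, 13.74 and 13.75 in knockouts 1 to 3. Knockout 1 was the lowest and control 2 the highest, and the groups overlapped. The means were 13.75 ± 0.13 and 13.62 ± 0.21, a difference of −0.12 (95% confidence interval −0.41 to 0.17, adjusted p = 0.938 in limma). The interval corresponds to a change between −24.9% and 12.3%. A value of this height is close to the upper end of what the arrays measure, where the signal can be compressed. The dimmer Igf2 probe set measured 6.33, 7.33 and 7.33 in controls and 6.30, 7.19 and 7.09 in knockouts. There the replicate 1 arrays of the 2 genotypes stood together, below the other 4 arrays at 7.09 to 7.33, and the genotype difference was −0.14 (−0.90 to 0.63). For the brightest probe set the difference was −0.0042 without knockout 1 and −0.050 without replicate 1 of both groups.

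Igf1, which is made in skin by dermal cells and acts on keratinocytes and follicles, measured 9.75, 9.59 and 9.73 in controls and 9.38, 9.64 and 10.09 in knockouts. The 3 knockouts enclosed all 3 controls, with knockout 1 the lowest array and knockout 3 the highest. The means differed by 0.013 (−0.39 to 0.41, adjusted p = 0.997 in limma), an interval of −23.6% to 33.3%. Without knockout 1 the difference was 0.18, and without replicate 1 of both groups 0.21. The next brightest probe set of Igf1 showed the same order in the knockouts, at 9.07, 9.38 and 9.84, around controls of 9.48 to 9.49 with an SD of 0.0035. The SD of the knockouts in that probe set was 0.39. The other probe sets differed by 0.078 and 0.14, and all 4 were highest in knockout 3. Knockout 3 and control 2 were the arrays with low Y-linked expression, a mean of 3.15 and 3.12 over Eif2s3y, Kdm5d and Uty against 7.88 to 8.39 in the other 4. Control 2 was not high in Igf1 (9.59), and the part of embryo sex was not tested beyond the fit with the Y-linked mean as a covariate, in which the difference was 0.015.

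The receptors varied together. Igf1r, the signalling receptor, measured 8.30, 9.13 and 8.66 in controls and 8.20, 8.90 and 8.92 in knockouts. The replicate 1 arrays were the lowest of each group, and control 2 was the highest of all. The means of 8.70 ± 0.41 and 8.67 ± 0.41 differed by −0.023 (−0.62 to 0.58, adjusted p = 0.996 in limma). In its 4 other probe sets the values ran from −0.12 to 0.093, with intervals that all contained 0. Without knockout 1 the brightest probe set gave 0.21, and without replicate 1 of both groups 0.015. Igf2r, the clearance receptor, measured 9.60, 10.56 and 10.001 in controls and 9.32, 10.13 and 10.19 in knockouts. Its order of arrays was close to that of Igf1r, with knockout 1 lowest and control 2 highest. The difference was −0.17 (−0.86 to 0.53, adjusted p = 0.97 in limma), and −0.25 (−0.90 to 0.39) in the dimmer probe set. Without knockout 1 the brightest probe set gave 0.11, and without control 2 it gave 0.083. Without replicate 1 of both groups it gave −0.12.

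Among the binding proteins, Igfbp3, the main carrier of IGFs in serum and a product of dermal and mesenchymal cells, had the smallest p of the 10 genes. It measured 9.36, 10.12 and 9.79 in controls and 9.03, 9.40 and 9.74 in knockouts. Each knockout lay below the control of the same number, by −0.33, −0.72 and −0.057, but knockouts 2 and 3 lay above control 1. The means were 9.76 ± 0.38 and 9.39 ± 0.35, a difference of −0.37 (−0.90 to 0.17, adjusted p = 0.914 in limma), or −22.5% with an interval of −46.6% to 12.3%. The other Igfbp3 probe set gave 9.03 ± 0.42 and 8.59 ± 0.31, a difference of −0.44 (−0.98 to 0.10, adjusted p = 0.909 in limma), with within-number differences of −0.27, −0.85 and −0.20. The sign of the brightest probe set was negative under all 17 alternative settings, with values of −0.57 to −0.19. Some of these settings, such as the replicate block, leave the difference unchanged by construction and could not alter its sign. Without replicate 1 of both groups it was −0.39.

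Igfbp4, a binding protein that restrains IGF action until it is cleaved, was read by 6 probe sets. Its brightest measured 11.61, 12.12 and 11.93 in controls and 11.15, 12.03 and 12.03 in knockouts. Knockout 1 alone lay below the controls. The difference was −0.15 (−0.74 to 0.43, adjusted p = 0.968 in limma), and the 5 others gave −0.28 to −0.15. Without knockout 1 the brightest gave 0.14, and without replicate 1 of both groups 0.0024. All 6 probe sets thus had lower knockout means, but they read 1 transcript population and are no separate evidence. Their within-number differences were unlike. The dimmest gave −0.29, −0.22 and −0.21 for numbers 1 to 3, and the second brightest −0.39, −0.15 and 0.10.

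Igfbp5, a binding protein of mesenchyme and muscle that is held in the extracellular matrix, had the widest spread. In its brightest probe set controls 1 to 3 measured 11.41, 12.33 and 11.99 and knockouts 1 to 3 measured 10.64, 11.98 and 11.98. Knockout 1 was the lowest by far, and knockouts 2 and 3 lay inside the range of the controls. The difference was −0.38 (−1.29 to 0.53, adjusted p = 0.938 in limma). It was 0.068 without knockout 1, and −0.18 without replicate 1 of both groups. The other Igfbp5 probe set had the opposite sign, at 8.90, 9.29 and 9.16 in controls and 9.06, 9.48 and 9.51 in knockouts. There each knockout lay above the control of the same number, by 0.16, 0.20 and 0.35, although the groups overlapped, and the difference was 0.23 (−0.12 to 0.59, adjusted p = 0.916 in limma).

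The disagreement of the Igfbp5 probe sets was examined after their values were seen. The brightest minus the other gave 2.51, 3.04 and 2.83 in controls and 1.58, 2.497 and 2.47 in knockouts on the log2 scale. Only changes between arrays can be read from these numbers, since probe sets differ in their response. The knockouts lay below the controls, by −0.61 over all arrays and by −0.31 without knockout 1, and no test is given for a contrast chosen in this way. Within replicate numbers 1 to 3 the differences were −0.93, −0.55 and −0.36. Knockout 2 and control 1 were nearly level, at 2.497 and 2.51. Among 9010 genes with at least 2 probe sets, 12.3% had groups without overlap in the same measure and 0.322% had a difference at least as large in size. The latter share refers to −0.61, and none was computed without knockout 1. It makes no allowance for the spread between arrays. The brightest Igfbp5 probe set had an SD over arrays of 0.61, against a median of 0.16 in all those above the median level. For a contrast picked after seeing its values, the share is therefore a description and cannot serve as a test. Neither the labels nor the annotation used here say which regions of the transcript these probe sets read.

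**Figure D2:**
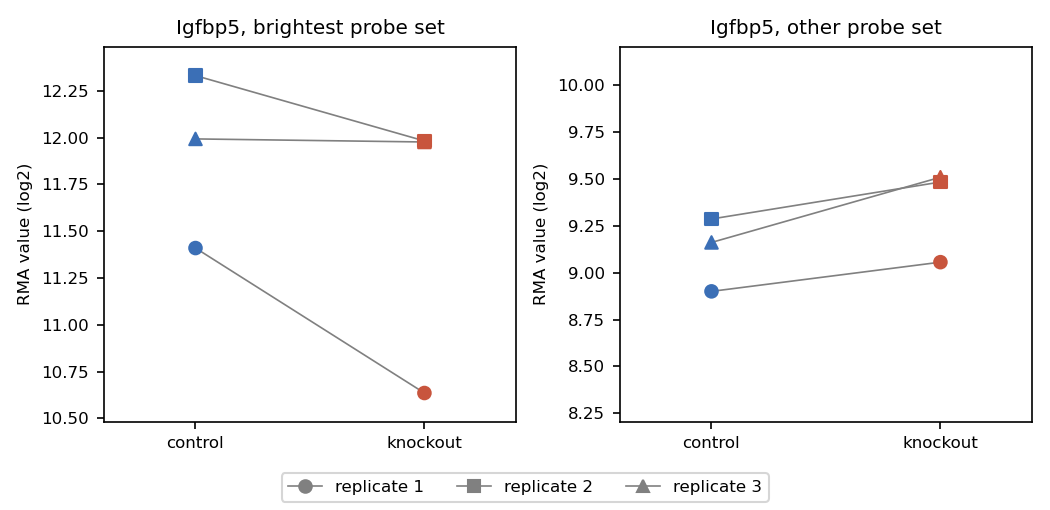
RMA value (log2) of Igfbp5 in control and knockout arrays, for the brightest probe set (left) and the other (right); lines join arrays with the same replicate number and each panel spans 2 log2 units. All 3 lines slope down on the left (by 0.77, 0.35 and 0.016) and up on the right (by 0.16, 0.20 and 0.35).

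The remaining binding proteins, Igfbp2, Igfbp6 and Igfbp7, were unlike each other in their order of arrays. Igfbp2, which is made in epithelia and in many fetal tissues, measured 10.45, 10.72 and 10.31 in controls and 10.31, 10.38 and 10.37 in knockouts. The knockouts were tight, with an SD of 0.041 against 0.21, and their difference of −0.14 (−0.40 to 0.13, adjusted p = 0.925 in limma) fell to −0.027 without control 2. Igfbp6, which prefers IGF2 over IGF1, measured 6.10, 5.78 and 6.17 in controls and 6.10, 6.39 and 5.89 in knockouts, close to the array medians. Its lowest values came from control 2 and knockout 3, the arrays with low Y-linked expression, and the link was not tested. The difference was 0.11 (−0.26 to 0.48, adjusted p = 0.959 in limma). Igfbp7, a distant relative that binds IGFs weakly and is known from vessels, measured 9.66, 10.05 and 10.39 in controls and 9.59, 10.52 and 10.58 in knockouts. The difference was 0.20 (−0.48 to 0.87, adjusted p = 0.961 in limma), and its other probe sets gave −0.018 and 0.16. Without knockout 1 the brightest probe set gave 0.52, and without control 1 it gave 0.010. Without replicate 1 of both groups it gave 0.33.

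**Figure D3:**
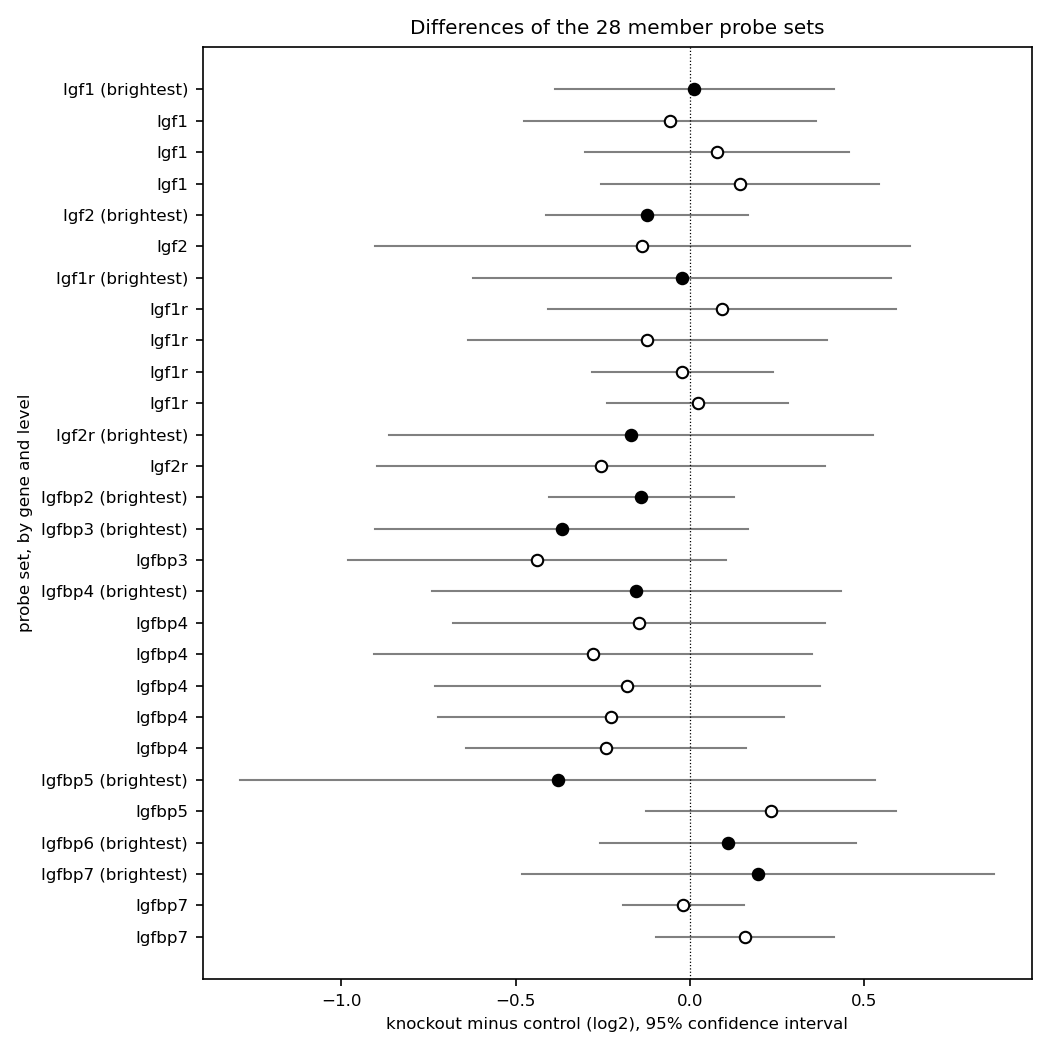
Knockout minus control (log2) for all 28 probe sets, with 95% confidence intervals from limma; filled points are the brightest probe set of a gene, open points the others in order of level. All 28 intervals contain 0, from Igfbp5 at −0.38 and Igfbp3 at −0.44 to Igfbp5 at 0.23.

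Deviations from group means correlated at 0.568, 0.359 and 0.124 between arrays of replicate numbers 1, 2 and 3. Control 2 correlated more with knockout 3 (0.422), and the labels do not say what the numbers stand for. A fit with the number as a block therefore rests on a pairing read from these same data. In that fit 8 of 28 member probe sets had an unadjusted limma p under 0.05, against 12.0% of all probe sets, and 0 passed the adjusted threshold (smallest limma adjusted p = 0.341), against 0.00666% of all probe sets. Of the 8, 7 were lower in the knockout and 1 was higher. The lower ones were both probe sets of Igfbp3 (limma adjusted p = 0.358 and 0.341), 3 of Igfbp4 that do not include its brightest, the dimmer of Igf2r and the brightest of Igfbp5 (limma adjusted p = 0.369). The higher one was the other probe set of Igfbp5 (limma adjusted p = 0.353). Without replicate 1 of both groups, in the fit without the block, 5 of 28 had an unadjusted limma p under 0.05, against 7.63% of all probe sets.

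The common pattern of the members followed single arrays. Of the 28 probe sets 20 had their lowest value in knockout 1, against 23.4% of all probe sets, and 16 had their highest in control 2. Among probe sets above the median level these counts were 19 and 16 of 26, against 29.1% and 22.7% of all 22518. In the brightest probe sets, each centred on its own mean, knockout 1 lay at −1.09 for Igfbp5, −0.66 for Igfbp4, −0.64 for Igf2r, −0.54 for Igfbp3 and Igfbp7 and −0.48 for Igf1r. Control 1 lay between −0.47 and −0.20 for the same 6 genes. The other 4 arrays lay between −0.18 and 0.61 for them.

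Marker lists of dermal cells were also lowest in knockout 1 and next lowest in control 1. They were not highest in control 2, but in knockout 2 for fibroblast and in knockout 3 for endothelial and pericyte genes. Single genes differed, and the fibroblast gene Dpt was lowest in control 2, at 11.35. The mean of 8 fibroblast genes, centred in the same way, was −0.54 in knockout 1 and −0.26 in control 1, and 0.14 to 0.28 in the other 4 arrays. The mean of 8 endothelial genes was −0.87 and −0.36 in those arrays and 0.27 to 0.35 elsewhere, and that of 6 pericyte genes was −0.55 and −0.41 against 0.19 to 0.28. The mean of 6 suprabasal epidermal genes was −0.27, −0.24 and −0.14 in controls 1 to 3 and 0.45, 0.16 and 0.049 in knockouts 1 to 3, so it did not overlap between the genotypes. All 6 had higher knockout means, 5 with an unadjusted limma p under 0.05 and 0 past the adjusted threshold. Of all probe sets, 2.58% were higher at that unadjusted p. Of 7 basal epidermal genes 5 had higher knockout means (median difference 0.22), and their list mean overlapped, at −0.37 to 0.15 in controls and −0.20 to 0.20 in knockouts. The part of the epidermal lists in the members' values was not tested. Skeletal muscle genes, which also express Igf2 and Igfbp5, were ordered otherwise, with −0.54 in knockout 2 and 0.45 in control 2, and macrophage genes ranged from −0.24 in control 2 to 0.22 in control 3. In bulk skin, fewer cells of a type and less RNA per cell cannot be told apart. With the fibroblast mean as a covariate, a setting chosen after seeing the data, the difference was −0.28 for Igfbp5, −0.32 for Igfbp3, −0.098 for Igf2r and −0.090 for Igfbp4. In that fit 6 of 28 member probe sets had an unadjusted limma p under 0.05, against 10.7% of all, and 0 passed the adjusted threshold.

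**Figure D4:**
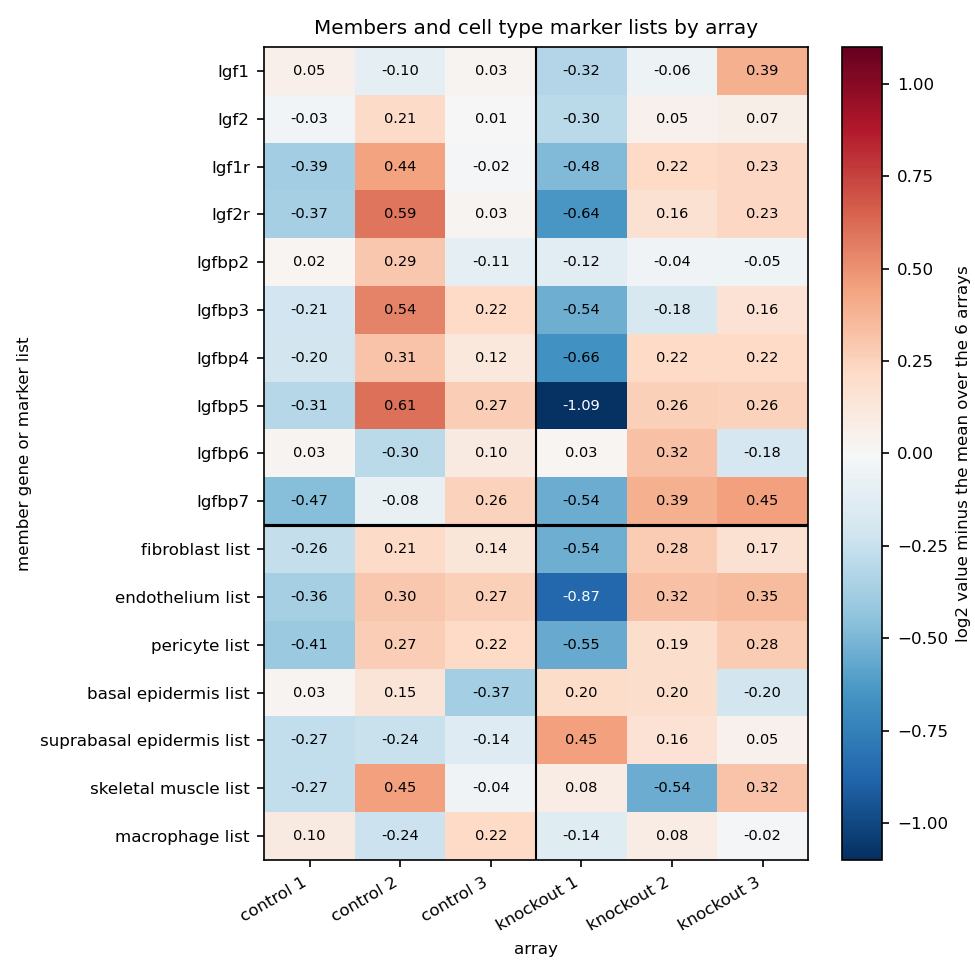
Log2 value minus the mean over the 6 arrays, for the brightest probe set of each member (upper block) and for the mean of each cell type marker list (lower block); columns are arrays, blue is below and red above the mean. Knockout 1 and control 1 are low in Igf1r, Igf2r, Igfbp3, Igfbp4, Igfbp5 and Igfbp7 and in the fibroblast, endothelium and pericyte lists.

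The promoters of Igf2r, Igfbp3, Igfbp4 and Igfbp5 are shown because these genes had, of the 10, the lowest 4 mean differences. All 4 were lowest in knockout 1, next lowest in control 1 and highest in control 2, as was Igf1r. The order of the remaining arrays was not the same in them. All 10 genes matched the RefSeq promoter table of build GRCm38.p6, with 14 windows of 250 bases before to 50 bases after a transcript start, 4 of them for Igf2. Each sequence reads 5′ to 3′ along the gene. Capitals mark matches on either strand to the TATA box (TATAAA), the GC box (GGGCGG), the CCAAT box (CCAAT) and the palindromic E-box (CACGTG).
Igf2r promoter, chr17:12769657-12769956, minus strand: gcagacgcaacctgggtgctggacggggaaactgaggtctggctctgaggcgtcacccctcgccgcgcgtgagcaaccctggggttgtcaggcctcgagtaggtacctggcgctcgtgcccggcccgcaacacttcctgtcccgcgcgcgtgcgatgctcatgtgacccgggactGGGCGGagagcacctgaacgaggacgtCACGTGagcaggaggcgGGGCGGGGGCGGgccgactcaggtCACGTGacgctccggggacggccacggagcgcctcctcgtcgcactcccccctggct
Igfbp3 promoter, chr11:7213874-7214173, minus strand: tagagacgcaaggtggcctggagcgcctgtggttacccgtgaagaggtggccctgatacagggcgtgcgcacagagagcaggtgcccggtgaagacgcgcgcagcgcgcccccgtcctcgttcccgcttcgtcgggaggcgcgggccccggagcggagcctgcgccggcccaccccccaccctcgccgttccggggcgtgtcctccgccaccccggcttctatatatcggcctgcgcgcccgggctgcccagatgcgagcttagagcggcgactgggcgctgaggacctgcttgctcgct
Igfbp4 promoter, chr11:99040994-99041293, plus strand: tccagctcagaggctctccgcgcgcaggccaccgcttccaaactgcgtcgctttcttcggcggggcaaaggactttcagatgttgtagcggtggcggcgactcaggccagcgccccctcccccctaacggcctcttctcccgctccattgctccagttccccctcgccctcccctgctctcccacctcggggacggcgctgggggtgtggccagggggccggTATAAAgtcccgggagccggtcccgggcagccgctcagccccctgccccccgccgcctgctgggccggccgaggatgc
Igfbp5 promoter, chr1:72874816-72875115, minus strand: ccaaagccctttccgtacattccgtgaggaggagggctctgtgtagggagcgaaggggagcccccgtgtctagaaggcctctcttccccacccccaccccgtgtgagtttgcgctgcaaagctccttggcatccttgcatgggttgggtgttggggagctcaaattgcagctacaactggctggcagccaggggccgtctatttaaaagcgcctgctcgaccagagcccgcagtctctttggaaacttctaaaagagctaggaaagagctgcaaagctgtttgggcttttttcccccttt

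The 4 windows had different motif content. That of Igf2r held 3 GC boxes and 2 palindromic E-boxes, against a share of 35.7% and 7.15% of all 32851 windows with at least 1. That of Igfbp4 held 1 TATA box, which occurs in 13.6% of all windows. Those of Igfbp3 and Igfbp5 held none of the 4 letter strings, which says only that these letters are not in the windows. Their GC content was 70.7%, 71.7%, 71.3% and 56.3% for Igf2r, Igfbp3, Igfbp4 and Igfbp5, against a median of 52.7% over all windows. In the gene table Igfbp2 and Igfbp5 are neighbours, as are Igf2 and Ins2. The spread between arrays was unlike in the neighbours Igfbp2 and Igfbp5, since Igfbp2 spanned 0.41 between its lowest and highest array and Igfbp5 spanned 1.69 in its brightest probe set.

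The genes around the members in the pathway were read from lists of 37 genes, of which 32 had a probe set of their own. None passed the adjusted threshold, 4 had an unadjusted limma p under 0.05 (2 higher and 2 lower, against 2.58% and 2.63% of all probe sets), and 18 had lower and 14 higher knockout means, with a median difference of −0.046. The median over all probe sets was 0.0018.

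Among 14 measured transducers below the receptor, 0 passed and 7 had lower means. Grb10, an adaptor that binds the insulin and IGF1 receptors and restrains their signal, measured 11.85, 12.11 and 11.75 in controls and 11.62, 11.58 and 11.61 in knockouts. All 3 knockouts lay below all 3 controls, which held for 5.00% of all probe sets, and the difference was −0.30 (−0.55 to −0.056, adjusted p = 0.909 in limma). Dimmer probe sets gave −0.24 and −0.051. Foxo3, a transcription factor that IGF signalling keeps out of the nucleus, differed by 0.29 (−0.010 to 0.59), with 0.096 and 0.091 in its other probe sets. The docking protein gene Irs1 differed by 0.035 (−0.28 to 0.35).

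Of 3 measured genes of Igf2 regulation, 3 had lower means and 0 passed. Igf2bp3, an RNA-binding protein that binds Igf2 mRNA, measured 9.88, 10.05 and 9.93 in controls and 9.59, 9.85 and 9.73 in knockouts. The groups did not overlap, and the difference was −0.23 (−0.46 to −0.0060, adjusted p = 0.909 in limma). Its 5 other probe sets did not agree in size. Those at −0.47 (−0.75 to −0.19) and −0.32 (−0.52 to −0.12) did not overlap, both with adjusted p = 0.909 in limma. The rest, at −0.19, −0.056 and −0.024, overlapped. Plagl1, an imprinted zinc finger factor of fetal growth, differed by −0.092 (−0.32 to 0.14) in its brightest probe set, by −0.40 (−0.63 to −0.16, adjusted p = 0.909 in limma) in another and by 0.0072 in the dimmest. H19, the imprinted RNA next to Igf2, was read only by a probe set shared with Mir675 and is not given.

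Among 5 other family genes, Igfbpl1, whose product resembles the binding proteins, measured 5.36, 5.56 and 5.62 in controls and 5.76, 5.86 and 5.69 in knockouts, a difference of 0.26 (0.029 to 0.49, adjusted p = 0.909 in limma) at a level below the array medians. Its dimmer probe set gave 0.067. Ins2, an insulin gene, differed by 0.27 (0.0034 to 0.54, adjusted p = 0.909 in limma) with overlapping groups, and the insulin receptor gene Insr by −0.032 (−0.48 to 0.42). Among 6 genes of binding protein cleavage, Pappa2, a protease that cleaves IGFBP3 and IGFBP5, measured 8.73, 10.20 and 9.68 in controls and 8.20, 9.52 and 9.49 in knockouts. Its order was that of the brightest Igfbp5 probe set, with knockout 1 lowest and control 2 highest, and the difference was −0.46 (−1.53 to 0.60). Stc1, which encodes an inhibitor of the related protease PAPP-A, differed by −0.20 (−0.43 to 0.029) without overlap, and by 0.030 with overlap in its dimmer probe set. In the growth hormone axis, with 4 genes, Stat5a differed by 0.32 (−0.040 to 0.68) and the receptor gene Ghr by −0.14 (−0.32 to 0.050). The dimmer probe set of Stat5a gave 0.096. Those of Ghr gave 0.042 and −0.26 (−0.50 to −0.022, adjusted p = 0.909 in limma), the latter without overlap.

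The genes most like each member over the 6 arrays were sought among 11848 other genes above the median level, by the root mean square difference of profiles centred on their own means. The measure is a description over 6 arrays that share their replicate structure. Igfbp4 was nearest to Ccnd1, a cyclin, at 0.027 and Emilin3, a matrix protein, at 0.028, against a median of 0.36 over all genes. Igfbp3 was nearest to Wnt5a, a ligand of non-canonical Wnt signalling, at 0.042, and to Dcaf12l1 at 0.062. Igfbp5 was nearest to Plod1, a collagen-modifying enzyme, at 0.073, and to Plekhg2 at 0.090. For Igfbp7 they were the kinase gene Prkcb at 0.080 and Emcn, a marker of endothelium, at 0.085. The receptors were close to each other, at 0.095, with 60 genes nearer to Igf1r and 23 nearer to Igf2r. Those closest were Igsf3 (0.049) and Gabbr1 (0.062) for Igf1r and Radil (0.057) and Tmem255a (0.059) for Igf2r. Igf1, at 0.091 from the tetraspanin gene Tspan13 and 0.095 from 4931429L15Rik, and Igfbp6, at 0.087 from H2-Aa and 0.095 from Cd55, had their nearest genes farther off relative to medians of 0.26 and 0.24.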

How the data were processed

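RNA of 6 back skins was labelled and hybridised to 1 array each. Per the submitters' processing notes, the authors made the deposited log2 values with RMA (version not given in the sources used here), which corrects background, equalises the arrays and summarises probes. The log base was read from the range, 2.39 to 14.8. RMA would hide a shift shared by most genes. Scanner files were not used, so no detection calls were made.

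Of 45101 rows, 64 array controls were left out and no filter on level was applied. Symbols came from the platform annotation, updated through Entrez identifiers (34945 probe sets with 1 symbol, 932 with several, 9160 with none; 34741 matched the GRCm38.p6 gene table). Each gene was represented by its brightest probe set. Genotypes were compared by moderated linear models (R 4.3.3, limma 3.58.1, functions lmFit and eBayes; two-sided; prior degrees of freedom 3.43 beside 4 residual), Benjamini-Hochberg adjusted over 45037 probe sets. The number of arrays, 3 per group, limits the precision. Figures used matplotlib 3.10.9 in Python 3.11.15.

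Members, gene lists and tests were chosen with earlier results of these data known. Named genes are the 10 members, the 2 genes of smallest p in each pathway list plus Insr, Irs1 and Grb10, and the 2 nearest profiles of members with an SD of at least 0.2. The reported fit was unpaired, and all its intervals and p-values ignore the replicate number. Deviations from group means correlated at 0.568, 0.359 and 0.124 between arrays of equal replicate number, all above 0.1. The numbers were therefore used as pairs in the within-number differences and in the alternative fit with a block. The labels do not say what they stand for, and control 2 correlated more with knockout 3 (0.422). Correlations between arrays were 0.985 to 0.996 and no pair was a duplicate (SD of differences 0.199 to 0.397). Ddx3y, planned for the Y-linked mean, had no probe set of its own.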

Additional observations from a re-analysis of the deposited data

How the results depend on the processing

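Of 45037 probe sets 0 passed limma's adjusted threshold in the reported fit (2348 at an unadjusted p under 0.05) and 3 passed with the replicate block, none of them a member. The count was 0 under the other alternatives, including each array left out in turn. For the 28 member probe sets it was 0 under every alternative run. The signs of Igf2, Igfbp2, Igfbp3 and Igfbp7 held in all 17 settings, though their sizes ran from −0.19 to −0.0042 for Igf2, from −0.23 to −0.027 for Igfbp2, from −0.57 to −0.19 for Igfbp3 and from 0.010 to 0.52 for Igfbp7. Among 170 values of the 10 genes 16 had another sign than reported, and none passed the adjusted threshold in either fit. These were for Igf1, Igf1r, Igf2r, Igfbp4, Igfbp5 and Igfbp6. Some settings, such as the replicate block, leave every difference as reported by construction, so they could not change a sign. Differences ranged over the settings from −0.18 to 0.21 for Igf1, from −0.22 to 0.21 for Igf1r, from −0.40 to 0.11 for Igf2r, from −0.30 to 0.14 for Igfbp4, from −0.63 to 0.068 for Igfbp5 and from −0.025 to 0.23 for Igfbp6. The mean of all probe sets of a gene gave −0.073 for Igfbp5. Lower knockout means numbered 6 of 28 without knockout replicate 1 and 15 to 23 otherwise. The cause was not tested.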
